A study of Mus musculus with 8 samples.

Results

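Replication initiation sites (ISs) of cells that lacked RIF1 and were depleted of MCM6 (group Rif1KO_shMcm6) were compared with those of unmodified cells (group WT). Both groups were of the CH12 line, which derives from a B cell lymphoma of the mouse, cultured with IL4, CD40 and TGF beta stimulation per the labels. The assay was SNS-seq (sequencing of short nascent strands), in which newly made DNA of small size is isolated and digested with lambda exonuclease, which spares strands that carry an RNA primer. The study held 8 libraries in 4 groups of 2, and the other groups were Rif1KO (RIF1 knockout, no hairpin) and Rif1KO_shLacZ (RIF1 knockout with a control hairpin against LacZ). The combined group therefore differed from WT in genotype and in carrying a lentiviral hairpin with puromycin selection, and WT cells with a hairpin were not among the samples used here. Libraries of a group came from separately thawed vials of CH12 cells, and the deposited values hold 1 pooled number per group, so no value below has a replicate error and no test across replicates was possible. The comparison used 2 kinds of data on the 19 autosomes. The IS lists held 25725 sites in WT and 113626 in Rif1KO_shMcm6. Densities were compared at 31462 paired sites, those that overlapped exactly 1 site of the other table, out of 38954 autosomal sites in the table of Rif1KO against WT and 127312 in the table of Rif1KO_shMcm6 against Rif1KO_shLacZ.

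Replication in mammals starts where an MCM helicase, loaded in G1 as an inactive double hexamer, is activated in S phase by the kinases DDK and CDK. MCM6 is one subunit of that hexamer, and RIF1 brings the phosphatase PP1 to chromatin, where it counteracts DDK and helps to set the time at which domains replicate. Many ISs mapped by SNS-seq lie next to runs of guanines that can fold into a G-quadruplex, a stack of guanine tetrads, and ISs are dense near promoters of early replicating, GC-rich DNA. SNS-seq reads DNA and not RNA, so a density over Rif1, Mcm6 or a B cell marker such as Pax5 could check neither the genotype nor the cell type.

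The sequences around a G-quadruplex motif are shown first because the ISs of both groups lay beside such motifs, and because the sites that were lowest and highest in Rif1KO_shMcm6 differed in base composition. A motif was counted as 4 runs of at least 3 G separated by loops of 1 to 7 bases, on either strand. The sequences were read from the mm9 genome on the strand that carries the G runs, 5′ to 3′, with the motif in capitals, 40 bases before it and the rest after it. They come from named sites described below that hold a motif outside annotated exons, the 3 lowest and the 2 highest of them. The first 3 are promoter sites that were 2.44 to 2.56 (log2) lower in Rif1KO_shMcm6 than in WT, and span chr10:118306134-118306333 (minus strand, Dyrk2), chr19:10599882-10600081 (plus strand, Sdhaf2) and chr10:126725648-126725764 (plus strand, Mbd6).
Dyrk2: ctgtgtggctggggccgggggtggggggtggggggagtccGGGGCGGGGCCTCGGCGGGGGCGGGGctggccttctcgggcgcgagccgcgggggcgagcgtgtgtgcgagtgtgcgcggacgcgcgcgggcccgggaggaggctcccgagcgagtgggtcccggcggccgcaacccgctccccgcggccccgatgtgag
Sdhaf2: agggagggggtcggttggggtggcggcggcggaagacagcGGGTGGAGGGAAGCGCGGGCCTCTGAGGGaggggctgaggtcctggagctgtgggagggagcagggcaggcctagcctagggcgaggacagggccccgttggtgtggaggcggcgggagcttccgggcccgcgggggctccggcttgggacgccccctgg
Mbd6: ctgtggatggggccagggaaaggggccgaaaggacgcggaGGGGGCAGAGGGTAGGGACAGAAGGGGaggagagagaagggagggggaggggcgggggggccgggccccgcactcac
The other 2 were both 1.43 (log2) higher, and span chr9:97270889-97271088 (minus strand, promoter of Trim42) and chr15:55443794-55443993 (minus strand, intron of Mtbp).
Trim42: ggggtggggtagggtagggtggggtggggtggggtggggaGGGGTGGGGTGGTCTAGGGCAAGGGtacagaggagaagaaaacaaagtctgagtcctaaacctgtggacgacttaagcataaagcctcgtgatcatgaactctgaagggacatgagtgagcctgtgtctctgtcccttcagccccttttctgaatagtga
Mtbp: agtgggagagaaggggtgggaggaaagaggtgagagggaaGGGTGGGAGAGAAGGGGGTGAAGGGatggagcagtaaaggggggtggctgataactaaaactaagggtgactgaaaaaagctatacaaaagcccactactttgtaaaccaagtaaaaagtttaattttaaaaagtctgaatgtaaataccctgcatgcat
The Dyrk2, Sdhaf2 and Mbd6 stretches were 82.0%, 75.5% and 72.6% GC and held 30, 16 and 6 CG dinucleotides. The Trim42 and Mtbp stretches were 55% and 44.0% GC and held 2 and 0.

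Reads within ISs, called depth here, differed between the groups. Such counts depend on the number and width of the sites as well as on how much was sequenced. Within the ISs of its table, WT had 3350255 reads and Rif1KO_shMcm6 had 23602750, while Rif1KO had 3724571 and Rif1KO_shLacZ 21071351. At the paired sites the median was 74 reads in WT and 233 in Rif1KO_shMcm6, and no site had fewer than 21 and 44. Intervals on shares are 95% Wilson intervals, and standard errors of single sites (counting SE) come from these reads. PCR copies are not independent molecules, so both cover counting error only.

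Rif1KO_shMcm6 cells had more and wider ISs than WT cells, over more of the genome. WT sites had a median width of 418 bp and covered 11.6 Mb (0.469% of the autosomes), and Rif1KO_shMcm6 sites had a median width of 589 bp and covered 71.7 Mb (2.90%). The Rif1KO_shLacZ list, of similar depth and without the Mcm6 hairpin, was nearer to Rif1KO_shMcm6 (98867 sites, 530 bp, 2.26%), and the Rif1KO list, of similar depth to WT, was nearer to WT (33465 sites, 438 bp, 0.643%). Number and width thus moved with depth as well as with the hairpins, and the part of depth in them was not tested. Of the WT sites, 77.1% (76.6 to 77.6) overlapped a Rif1KO_shMcm6 site by at least 1 bp, and of the Rif1KO_shMcm6 sites, 17.3% (17.0 to 17.5) overlapped a WT site. With the Rif1KO_shMcm6 list cut to its 25725 densest sites, the shares were 44.3% of WT sites and 43.4% of Rif1KO_shMcm6 sites. For scale, 78.6% of WT sites overlapped a Rif1KO site and 78.2% a Rif1KO_shLacZ site, and 74.3% of Rif1KO_shMcm6 sites overlapped a Rif1KO_shLacZ site.

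The 94021 sites listed in Rif1KO_shMcm6 without a WT site had smaller shares at promoters and in genes than those with one, with intervals that did not overlap. Their promoter share was 3.72% (3.60 to 3.84), where a promoter site lies within 1 kb of the start of a protein-coding transcript, against 7.65% (7.29 to 8.03) of the 19605 Rif1KO_shMcm6 sites that overlapped a WT site. Intergenic sites made up 64.4% of the former and 55.4% of the latter, median GC content was 43.6% and 47.5%, and a median of 5 and 9 protein-coding genes started within 500 kb. The 5899 WT sites without a Rif1KO_shMcm6 site leaned the other way. Among them 10.1% (9.34 to 10.9) were promoter sites, against 7.05% (6.70 to 7.41) of the 19826 WT sites that were overlapped. With the Rif1KO_shMcm6 list cut to its densest sites, 8.40% of those with a WT site and 5.01% of those without were promoter sites, but the lean of the WT sites was lost, at 7.82% (7.39 to 8.27) of those without such a site and 7.65% (7.18 to 8.15) of those with one. Counted by gene, 1958 of 21275 autosomal protein-coding genes (9.20%) had a WT site at a promoter and 4323 (20.3%) a Rif1KO_shMcm6 site. Of the genes with a WT promoter site, 1413 (72.2%) also had a Rif1KO_shMcm6 site and 545 did not. Over whole lists the promoter share was 7.74% in WT, 5.85% in Rif1KO, 4.20% in Rif1KO_shLacZ and 4.39% in Rif1KO_shMcm6. Median GC content was 48.7%, 46.6%, 44.9% and 44.3% in the same order. The list of the control hairpin thus had the smaller promoter share and GC content too, and the part of depth in this was not tested.

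ISs of both groups lay beside G-quadruplex motifs, on the 3′ side of the G-rich strand, and the Rif1KO_shMcm6 sites lay farther from the motif. A whole motif lay inside 76.4% (75.9 to 76.9) of WT sites and 72.6% (72.3 to 72.9) of Rif1KO_shMcm6 sites, whereas 6.73% of all autosomal windows of 418 bp and 9.37% of those of 589 bp held one. At like width the shares lay farther apart, most so in narrow sites. They were 74.8% and 59.3% among sites 300 to 400 bp wide and 76.9% and 63.5% among those 400 to 500 bp wide. Among those 500 to 700 bp wide they were 78.3% and 72.7%. In the central 300 bp of all sites the shares were 56.7% and 19.8%. The centre of a WT site lay a median 107 bp (quartiles 43 and 165) to the 3′ side of the nearest motif, and that of a Rif1KO_shMcm6 site 214 bp (113 and 307). The side was shared, since 82.4% of WT centres and 84.8% of Rif1KO_shMcm6 centres were on the 3′ side. Between them came Rif1KO, at 128 bp, and Rif1KO_shLacZ, at 192 bp, so the group with the control hairpin was nearer to Rif1KO_shMcm6 than to WT.

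**Figure D1:**
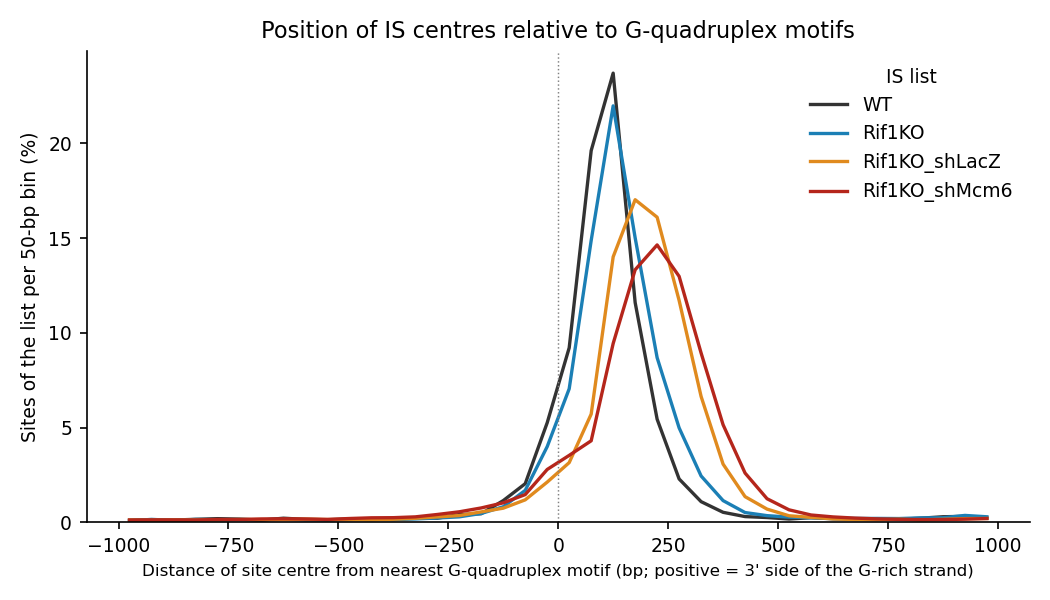
Share of the sites of each IS list (y axis, % per 50-bp bin) by the distance of the site centre from the nearest G-quadruplex motif (x axis, bp, positive on the 3′ side of the G-rich strand), for the 4 groups. The WT curve is narrow with its median at 107 bp, the Rif1KO_shMcm6 curve is broader with its median at 214 bp, and Rif1KO (128 bp) and Rif1KO_shLacZ (192 bp) lie between them.

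The shift was smaller in narrow sites. Among sites 300 to 400 bp wide the median distance was 104 bp in WT and 144 bp in Rif1KO_shMcm6, and among those 500 to 700 bp wide it was 126 bp and 244 bp. Among sites 400 to 500 bp wide the median distance was 97 bp in WT, 129 bp in Rif1KO, 180 bp in Rif1KO_shLacZ and 190 bp in Rif1KO_shMcm6. At promoters it was 52 bp in WT and 163 bp in Rif1KO_shMcm6, and at intergenic sites 112 bp and 217 bp. At paired sites the extra width lay on the side away from the motif. At the 25265 pairs with a motif within 300 bp of the WT table's site centre, the site of the hairpin table reached a median 216 bp farther (quartiles 113 and 346) on the 3′ side and 16 bp farther (-14 and 69) on the 5′ side. The 3′ reach was the larger at 84.6% (84.1 to 85.0) of pairs, at 84.2% where the motif was on the plus strand and at 85.0% where it was on the minus strand. These widths belong to whole tables, so this measure compares WT and Rif1KO together with both hairpin groups and cannot be split between the hairpins.

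Densities were then compared at the 31462 paired sites. The tables give reads inside ISs scaled to 1000000 per column (RPM), on a log2 scale, over 39116 sites in the table with WT and 129937 in the table with Rif1KO_shMcm6. The median at the pairs was 4.47 in WT and 3.30 in Rif1KO_shMcm6, values that depend on the number of sites in each table, so each column was set to a median of 0 over the pairs, and a difference below is the centred log2 density of Rif1KO_shMcm6 minus that of WT. By this measure 11.5% of pairs (3625, 11.2 to 11.9) were more than 1.5-fold higher in Rif1KO_shMcm6 and 16.5% (5193, 16.1 to 16.9) more than 1.5-fold lower. The split depends on the zero point, being 39.1% higher and 3.70% lower when each column was centred on all autosomal sites of its table, and 0.127% and 88.2% with no centring. Centring on all sites adds 0.51 to every difference, so each higher or lower value below is relative to the pairs. With that centring the median of all pairs was 0.44, that of promoter pairs 0.16, that of intergenic pairs 0.48, that of chromosome 10 0.03 and that of CpG-rich promoter pairs, described below, -0.22. The sign of the promoter median thus depends on the zero point and its place below the other contexts does not. The difference had a median of -0.07 and an SD over sites of 0.57, against 0.20 from counting error, and 5% of pairs lay below -1.0 and 5% above 0.85. Across pairs, Pearson's r was 0.534 between WT and Rif1KO_shMcm6 and 0.886 between WT and Rif1KO, a description over sites that share libraries, with WT and Rif1KO also sharing a table and its site borders.

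The sites of a pair often differed in width, and the difference followed the width. Median widths were 448 bp in the table that holds WT and 735 bp in the table that holds Rif1KO_shMcm6, and the median of the width ratio was 1.55. With the pairs split into 10 equal groups by this ratio, the median difference was -0.75 in the group of lowest ratios (median 0.99) and in that of the highest (2.82) it was 0.70. Per base, that is after subtracting log2 of the width in each table and centring again, the corresponding medians were 0.05 and -0.11. The main results on densities are therefore given on both scales, and a value without a named scale is on the RPM scale. Per base, 5.95% of pairs (1871) were higher and 5.18% (1630) lower, and the SD over sites was 0.37. Among the 7366 pairs whose widths were within 1.25 times of each other, 5.95% (438) were higher and 11.6% (852) lower.

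**Figure D2:**
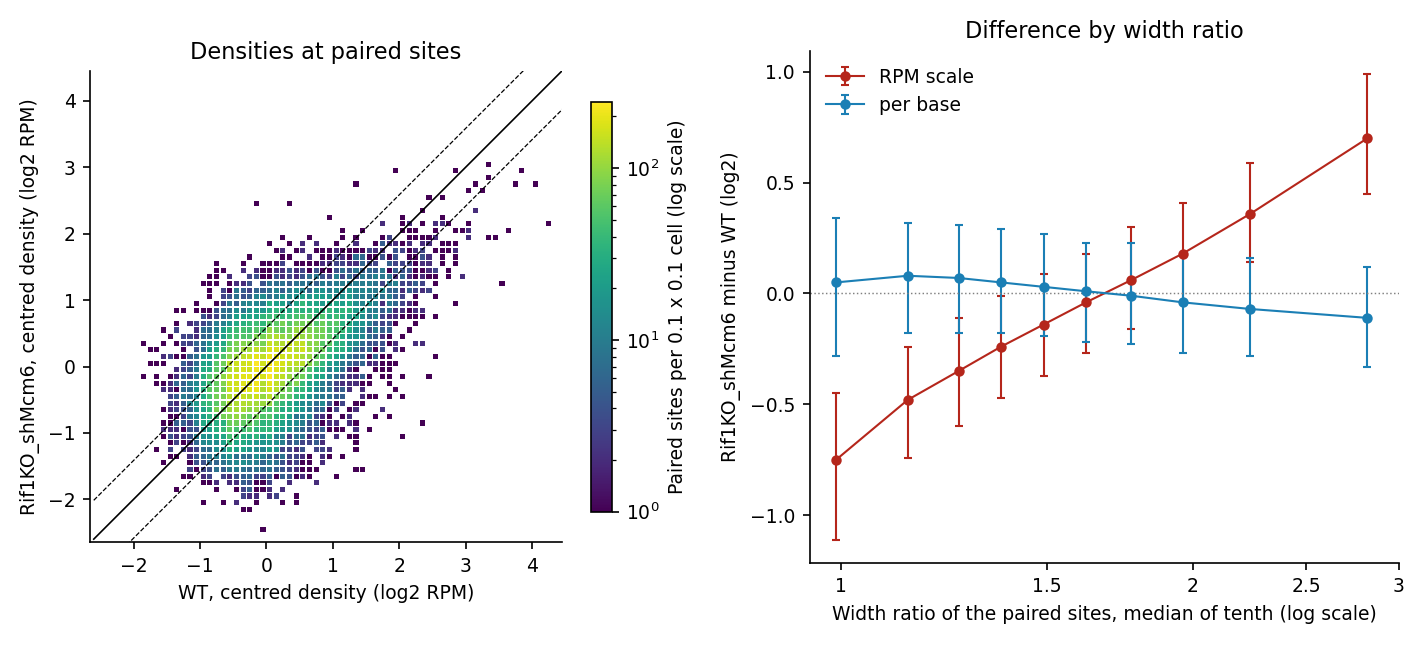
Left, centred density of paired sites in WT (x axis) and Rif1KO_shMcm6 (y axis), in log2 RPM, coloured by the number of sites, with the line of equality and dashed lines at 1.5-fold. Right, median difference (y axis, log2, bars for quartiles) in 10 groups of pairs by width ratio (x axis, log scale), which runs from -0.75 to 0.70 on the RPM scale and from 0.05 to -0.11 per base.

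At each site the difference is the sum of 3 steps, from WT to Rif1KO, to Rif1KO_shLacZ and to Rif1KO_shMcm6, and the middle one, between cells of the same genotype, spread most. Medians of the steps need not add up to the median of the difference. From WT to Rif1KO, 2.09% of pairs were more than 1.5-fold higher and 2.36% lower, with an SD of 0.28 over sites against 0.23 from counting. From Rif1KO to Rif1KO_shLacZ, 8.69% were higher and 12.8% lower (SD 0.48, counting 0.19), and per base 2.70% and 3.70% (SD 0.31). From Rif1KO_shLacZ to Rif1KO_shMcm6, 1.39% were higher and 0.861% lower (SD 0.24, counting 0.14). The middle step holds the control hairpin, infection and selection, the change from one table to the other and the change in depth, which cannot be told apart. The first and last steps are each within a table, where both groups share the site borders, and a pattern that both share with the whole difference is given beside it below.

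Relative to the median of all pairs, promoter ISs were lower in Rif1KO_shMcm6 than in WT, and most so where the promoter was rich in CpG. The 1991 promoter pairs had a median difference of -0.35 (SD 0.70), with 7.99% higher and 36.0% (33.9 to 38.1) lower, beside 11.5% and 16.5% of all pairs. Exon sites had a median of -0.16, intron sites of -0.09 and intergenic sites of -0.03. The 591 promoter pairs with an observed over expected CpG ratio of at least 0.6 in their central 300 bp had a median of -0.73, and 59.6% (55.6 to 63.4) were lower. The 1400 promoter pairs with a lower ratio had a median of -0.23 (per base -0.12). The 550 pairs away from promoters with a ratio of at least 0.6 had a median of -0.14 (per base -0.01). The lowest of these values was thus at CpG-rich promoters. Median GC content was 62.3%, 53.3% and 49.7% in these groups, in the order given. All pairs at 60% GC or more had a median of -0.64 (per base -0.29), so GC content is not separated here from promoter and CpG.

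The order of contexts was the same per base, with medians of -0.34 at CpG-rich promoters, -0.18 at all promoters, -0.09 in exons, -0.01 in introns and 0.04 between genes. At promoter pairs of like width the median was -0.34 (617 pairs). All the steps were below 0 at promoters on the RPM scale, with medians of -0.13, -0.14 and -0.10 from WT to Rif1KO, to Rif1KO_shLacZ and to Rif1KO_shMcm6, while per base the middle step was 0.03. Without chromosomes 10, 15 and 16, on which the Rif1KO to WT difference stands apart over long stretches, the promoter median was -0.33 and the intergenic median -0.02.

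**Figure D3:**
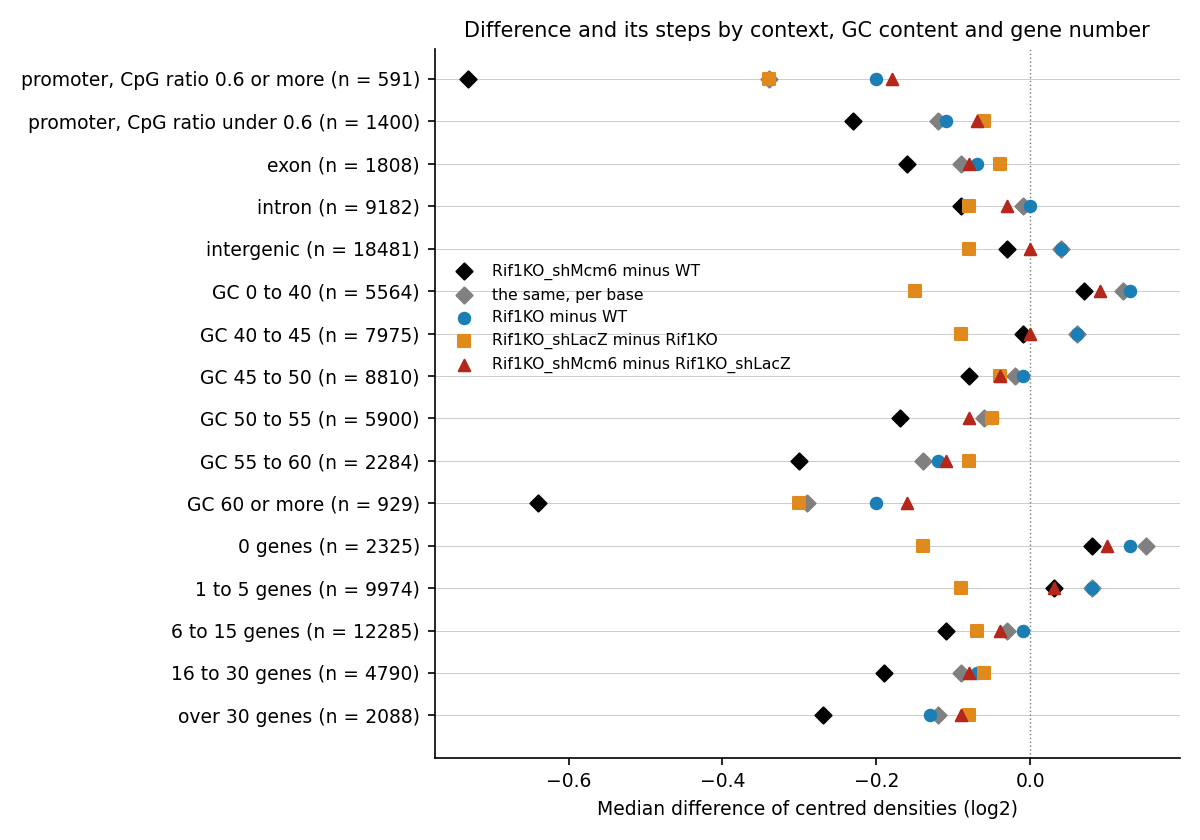
Median difference of centred densities (x axis, log2) at paired sites grouped by context, GC content (%) and number of protein-coding genes starting within 500 kb (y axis), for Rif1KO_shMcm6 minus WT on the RPM scale (black) and per base (grey) and for the 3 steps. Black diamonds run from -0.73 at CpG-rich promoters to -0.03 between genes and from 0.07 below 40% GC to -0.64 at 60% or more, and the steps within a table (circles and triangles) fall in the same order, apart from exons (-0.08) and CpG-poor promoters (-0.07) in the last step.

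GC content and gene density ordered the difference in the same way. The 5564 pairs under 40% GC had a median of 0.07, with 14.1% higher and 6.76% lower, and the 929 pairs at 60% GC or more had a median of -0.64, with 3.55% higher and 54.0% lower. Per base these medians were 0.12 and -0.29. Pairs with no protein-coding gene start within 500 kb (2325) had a median of 0.08, with 16% higher and 7.83% lower, and pairs with over 30 (2088) a median of -0.27, with 8.05% higher and 29.8% lower. Over all pairs, Spearman's rho of the difference was -0.218 with GC content and -0.199 with gene number, and -0.226 and -0.234 per base. These values describe 31462 sites that share libraries, depth and base composition, and GC content and gene number are themselves related. Both steps within a table ran the same way (rho with GC of -0.314 from WT to Rif1KO and -0.270 from Rif1KO_shLacZ to Rif1KO_shMcm6), while the middle step had 0.0475, or 0.196 per base.

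The rank order gave the same picture from the other side. Pairs were split into 5 classes of equal size by their difference. Class 1, the lowest, had a median of -0.76, a promoter share of 12.9% (12.1 to 13.7), a median GC content of 49.3% and 10 genes within 500 kb. Class 5, the highest, had a median of 0.63, a promoter share of 4.26% (3.79 to 4.79), 45.1% GC and 6 genes. Ranked per base, the promoter shares were 11.9% and 2.97%. On the RPM scale the class medians of the steps were -0.14, -0.51 and -0.17 in class 1 and 0.14, 0.43 and 0.11 in class 5. Ranked per base, with class medians of -0.46 and 0.48, they were -0.18, -0.17 and -0.14 in class 1 and 0.25, 0.14 and 0.11 in class 5. The classes were ranked on the difference itself, which brings the counting error of WT into the first step, so the steps are not put in order here. A G-quadruplex motif was in 74.7% of class 1 sites and 88.1% of class 5 sites, and pairs without a motif had a median of -0.23 against -0.04 with one (per base, -0.07 and 0.02).

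Densities were also set beside listing. The 19162 pairs whose site was in both lists had a median of -0.17, the 1596 listed in WT and not in Rif1KO_shMcm6 a median of -0.41, the 9802 listed in Rif1KO_shMcm6 and not in WT a median of 0.19, and the 902 in neither list a median of -0.03. Per base these medians were -0.07, -0.07, 0.16 and 0.17. Pairs in both lists and in WT alone thus had equal medians per base, while 6.15% (5.82 to 6.50) of the former and 16.1% (14.4 to 18) of the latter were lower by over 1.5-fold on that scale. Of the pairs listed in Rif1KO_shMcm6 and not in WT, 21.7% were higher and 5.67% lower on the RPM scale. These are not independent measures, since lists and densities come from the same reads. Within the pairs in both lists, promoter sites still had the lowest median, at -0.43 (per base -0.22), against -0.14 (-0.04) for intergenic sites. The order by starting density depended on the group that set it. Spearman's rho of the difference was 0.250 with the Rif1KO_shLacZ density and -0.337 with the Rif1KO density (per base 0.170 and -0.174), each from a column on neither side of the difference but in the same table as one side.

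Chromosome 10 stood apart from the other autosomes. Its 1921 pairs had a median difference of -0.49, or -0.30 per base, and 3.85% were higher and 43.6% (41.4 to 45.9) lower. The medians of the other 18 autosomes lay between -0.17 and 0.09, and per base between -0.07 and 0.16. Chromosome 10 also had the lowest ratio of list sites among the 19 autosomes, with 2303 in WT and 5620 in Rif1KO_shMcm6, a ratio of 2.44, while the highest was 6.19 on chromosome 12. Of the WT sites of chromosome 10, 65.5% overlapped a Rif1KO_shMcm6 site, against 84.3% on chromosome 14. A density from SNS-seq without an input library contains DNA copy number, and its part in these values was not tested.

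Along chromosome 10 the difference was larger toward the distal end on both scales, though not steadily. Over the first 40 Mb, 10-Mb medians lay between -0.09 and 0.01. From 60 to 100 Mb they were -0.52 to -0.60, of which -0.41 to -0.49 was the step from WT to Rif1KO. From 100 to 110 Mb the median was -0.55, and per base it was -0.26, smaller than the -0.35 from 90 to 100 Mb. From 110 to 120 Mb and from 120 to 130 Mb the medians were -1.30 and -1.27, where the WT to Rif1KO step was -0.42 and -0.48 and the same-genotype step to Rif1KO_shLacZ was -0.82 and -0.74. Per base these end values were -0.57 and -0.65, with WT to Rif1KO steps of -0.41 and -0.47 and same-genotype steps of -0.19 and -0.15, so the larger of the 2 steps depended on the scale. The step from Rif1KO_shLacZ to Rif1KO_shMcm6 was -0.03 and -0.08 there. Distal chromosome 12 was the counterpart on the high side, with medians of 0.53, 0.32 and 0.34 in the 10-Mb stretches from 90 Mb on (per base 0.32, 0.28 and 0.28), where the same-genotype step was 0.35, 0.37 and 0.37 (per base 0.16, 0.28 and 0.32).

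On chromosomes 15 and 16 steps of opposite sign met. Chromosome 16 was near 0 as a whole, with a median of -0.02, where a step of 0.32 from WT to Rif1KO was followed by one of -0.37 from Rif1KO to Rif1KO_shLacZ. In every 10-Mb stretch of it the first step lay between 0.24 and 0.43 and the second between -0.46 and -0.27. Per base the second step was -0.20 and the whole difference 0.16, so the cancellation was partial on that scale. Chromosome 15 kept a higher density at 40 to 50 Mb (0.35), 50 to 60 Mb (0.21) and 100 to 110 Mb (0.38), or 0.52, 0.27 and 0.43 per base, where the WT to Rif1KO step was 0.45, 0.25 and 0.50.

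**Figure D4:**
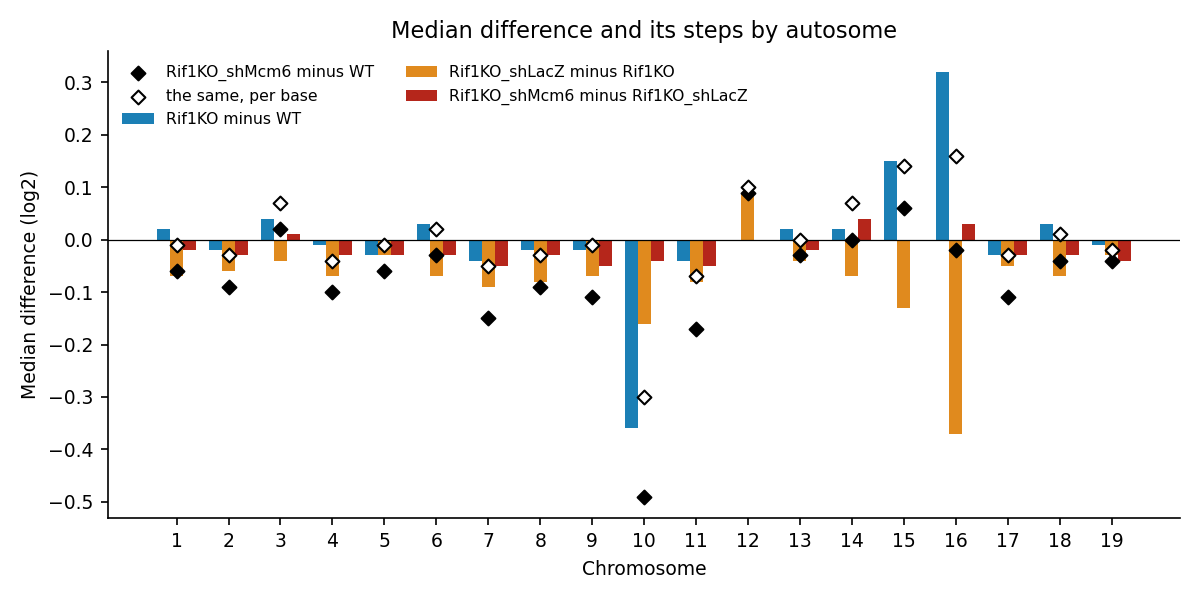
Median difference of paired sites (y axis, log2) on each autosome (x axis), with black diamonds for Rif1KO_shMcm6 minus WT, white diamonds for the same per base, and bars for the 3 steps. Chromosome 10 lies lowest at -0.49, and on chromosome 16 bars of 0.32 and -0.37 leave a median of -0.02.

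The 5 lowest windows of 1 Mb were all on chromosome 10. Of 1435 windows with at least 10 pairs, 42 had a median more than 1.5-fold lower, 31 of them on chromosome 10, and 4 had one more than 1.5-fold higher. Per base the counts were 7 and 3. The lowest window started at 116000001 with a median of -1.56 over 12 pairs (per base -0.71), and holds the lysozyme genes Lyz1 and Lyz2 and Frs2, an adaptor of growth factor receptors. The next, from 117000001, had -1.41 over 14 pairs (per base -0.63), all 14 more than 1.5-fold lower, and holds Mdm2, the ubiquitin ligase of p53, and the cytokine genes Ifng and Il22. Next were the windows from 127000001 (-1.41, with Il23a and the lipoprotein receptor gene Lrp1), from 110000001 (-1.30, with the cell cycle repressor gene E2f7) and from 115000001 (-1.27, with the deadenylase scaffold gene Cnot2). Per base these 3 windows had -0.73, -0.74 and -0.48. The highest windows were at 96 Mb on chromosome 12, with the adhesion gene Flrt2 (0.96 over 15 pairs, per base 0.42), at 44 Mb on chromosome 14 with the Ear and Ang ribonuclease genes (0.74, per base 0.40), at 97 and 99 Mb on chromosome 12 (0.67 and 0.63, per base 0.21 and 0.26, the latter with the lysosomal enzyme gene Galc), and at 91 Mb on chromosome 9 with the transcription factor genes Zic1 and Zic4 (0.57, per base 0.18). In the 5 highest windows, which were chosen on the difference, the same-genotype step was 0.21 to 0.56 on the RPM scale.

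Single sites were named by rank among the 11855 pairs that overlapped by at least 50% of both sites and were at or above the median in mean density. Of the 12 lowest, 7 were promoter sites, 6 were on chromosome 10 and 9 had at least 60% GC, beside 8.30%, 6.44% and 4.70% of these 11855 pairs. Their differences ran from -2.56 to -2.28 (counting SE 0.11 to 0.17) and per base from -1.96 to -0.74. All 12 were in the WT list, 8 were in the Rif1KO_shMcm6 list, and 8 were below 0 at each of the 3 steps. The 12 were picked for a low difference and a high mean density, so WT listing and steps below 0 follow in part from the choice. Some of the counted steps were small, such as -0.03 at the first step for the site in Gm9573 and Sfta2.

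The lowest was the promoter of Dyrk2, a protein kinase gene (chr10:118305854-118306926), where the centred density was 2.46 in WT, 1.97 in Rif1KO, -0.11 in Rif1KO_shLacZ and -0.10 in Rif1KO_shMcm6. The site was high in both groups of its first table and near the median in both hairpin groups, so the difference of -2.56 ± 0.12 (counting SE, 5.89-fold, 406 and 217 reads) lay mostly at the same-genotype step. The promoter of Sdhaf2, an assembly factor of succinate dehydrogenase (chr19:10599581-10600579), went from 1.5 and 1.21 to 0.16 and -0.96, a difference of -2.46 ± 0.17. Its last step, between the hairpin groups, was -1.11, and its per-base difference of -1.96 was the lowest of the 12. The promoter of Rtf1, a transcription elongation factor gene (chr2:119500546-119501655), was similar, at 1.61, 1.37, 0.06 and -0.76 (difference -2.37, per base -1.71). These 2 are on chromosomes other than 10, and each was lower at every step.

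The other promoters among the lowest were on chromosome 10. That of Mbd6, a gene for a methyl-CpG-binding domain protein, had 1.35 in WT, 0.52 in Rif1KO, -0.99 in Rif1KO_shLacZ and -1.08 in Rif1KO_shMcm6. That of Fzr1, the activator of the anaphase-promoting complex that keeps cells in G1, had 1.74, 1.02, -0.01 and -0.67. March9, a membrane ubiquitin ligase gene, had 2.58, 1.99, 0.68 and 0.17, and Gdf11, a TGF beta family ligand gene, had 1.86, 1.38, -0.37 and -0.42. Their per-base differences were -1.15, -1.39, -1.27 and -0.97. The remaining 5 were intergenic sites nearest to Vmn1r238, Slc16a7, Fam43a and 4921508M14Rik and a site in exons of Gm9573 and Sfta2, with differences of -2.41 to -2.29.

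**Figure D5:**
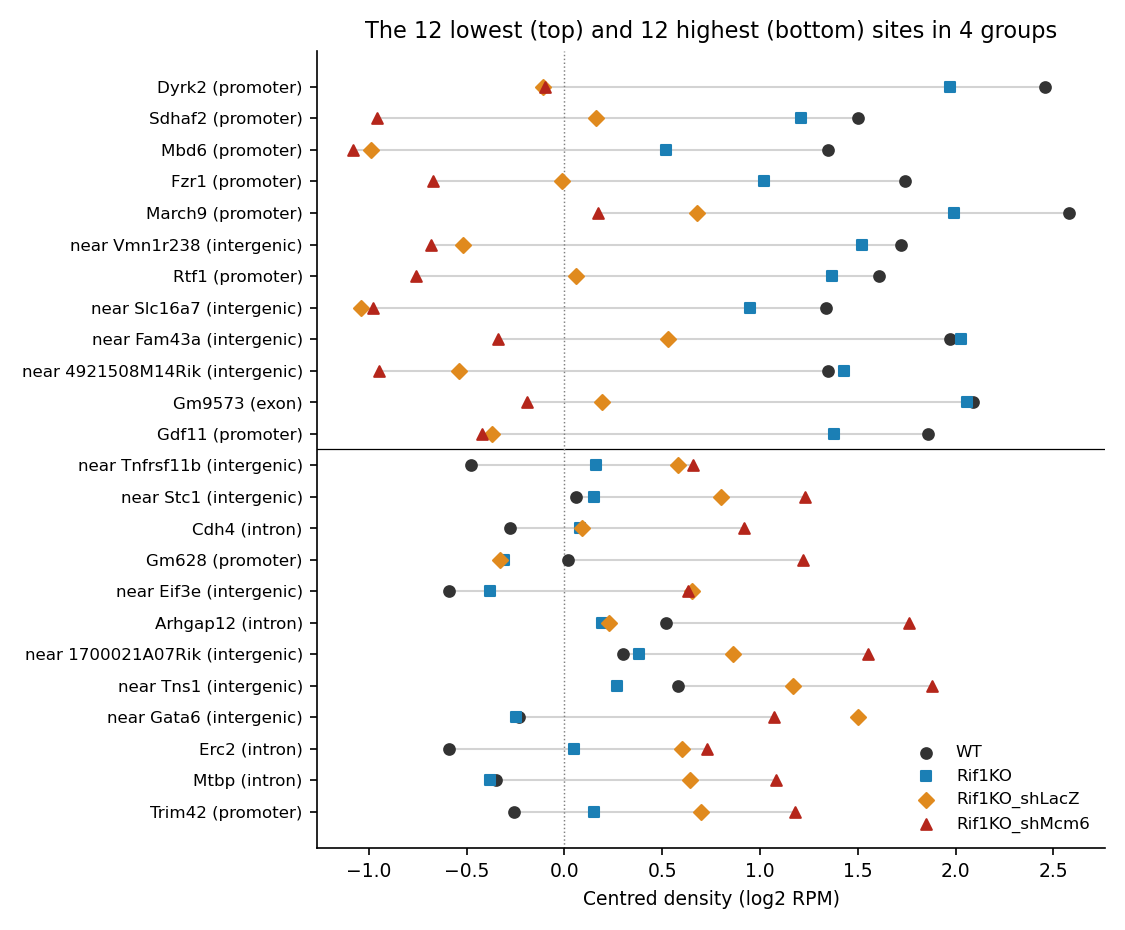
Centred density (x axis, log2 RPM) of the 12 lowest (upper part) and 12 highest (lower part) named sites in the 4 groups, 1 row per site, with a line from WT to Rif1KO_shMcm6. At the lowest sites WT lies between 1.34 and 2.58 and Rif1KO_shMcm6 between -1.08 and 0.17, and at the highest sites WT lies between -0.59 and 0.58 and Rif1KO_shMcm6 between 0.63 and 1.88. The sites were picked on this difference and on mean density, which in part sets these ranges.

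On the RPM scale, centred on the pairs, the 12 highest sites were smaller in difference than the 12 lowest. They comprised 6 intergenic, 4 intron and 2 promoter sites, where 54.9%, 29.5% and 8.30% of the 11855 pairs were of these kinds. Their differences ran from 1.14 to 1.43 (counting SE 0.15 to 0.22) and from 1.04 to 1.66 per base. Per base the lowest ran from -1.96 to -0.74, so the sizes overlapped, and the zero point also bears on this comparison. The overlap rule for naming leaves out pairs with large width ratios, whose RPM differences had the highest median. Whether the highest sites differ less than the lowest without that rule was not tested. The median GC content of the 12 highest was 53.4%, against 64.2% in the lowest and 46.2% over all pairs. Both sets were thus richer in GC than the pairs as a whole. The promoter of Trim42, a tripartite motif gene (chr9:97270404-97271445), had -0.26 in WT, 0.15 in Rif1KO, 0.70 in Rif1KO_shLacZ and 1.18 in Rif1KO_shMcm6, higher at every step. An intron site of Mtbp, whose protein binds MDM2 and the firing factor Treslin (chr15:55443382-55444300), had -0.35, -0.38, 0.64 and 1.08. An intron site of Erc2, a presynaptic scaffold gene, had -0.59, 0.05, 0.60 and 0.73. Trim42 and Erc2 were thus higher at each step, and Mtbp from the control hairpin on.

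At a few of the highest sites the difference lay between the hairpin groups. The promoter of Gm628 (chr15:73670707-73671528) had 0.02, -0.31, -0.33 and 1.22 in the order above, so the step from Rif1KO_shLacZ to Rif1KO_shMcm6 was 1.55. An intron site of Arhgap12, a GTPase activating protein gene, had 0.52, 0.19, 0.23 and 1.76, and one of Cdh4, a cadherin gene, -0.28, 0.08, 0.09 and 0.92. The other 6 were intergenic, nearest to Gata6, Tns1, 1700021A07Rik, Eif3e, Stc1 and Tnfrsf11b. The site near Gata6 was 1.74 higher at the same-genotype step and changed by -0.43 at the next.

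Genes of origin licensing and firing were counted next. Of 29 annotated autosomal genes, 5 had a paired site, 7 sites in all with a median of 0.14 (per base -0.21), 1 higher and 2 lower, beside 11.5% and 16.5% of all pairs. Mcm6 and the other genes of the MCM hexamer, Mcm2, Mcm3, Mcm4, Mcm5 and Mcm7, had no site in either list, and Rif1 had 2 WT and 3 Rif1KO_shMcm6 list sites and 1 pair, at 0.15 (per base -0.30). The 3 promoters with a pair were below 0, where the median of all promoter pairs was -0.35 (per base -0.18). The promoter of Gins2, a subunit of the GINS complex of the active helicase, was at 0.09 in WT, -0.85 in Rif1KO, -0.77 in Rif1KO_shLacZ and -1.08 in Rif1KO_shMcm6, a difference of -1.18 ± 0.21 (counting SE) that lay mostly at the first step and was -0.24 per base. Cdc45, another part of the active helicase, had -0.66 (per base -0.64), and Orc4, of the origin recognition complex, -0.44 (per base -0.05).

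The values of B cell genes were near those of all pairs. Of 27 such genes 12 had a pair, 24 sites with a median of -0.02 (per base 0.04), 2 higher and 5 lower, beside 11.5% and 16.5% of all pairs. Per base none of the 24 passed 1.5-fold, where 5.95% and 5.18% of all pairs did. At promoters, Cd86, a costimulatory ligand gene, had -0.68 and Ciita, the activator of MHC class II genes, 0.80 (per base -0.06 and 0.21).

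Genes known to be hit by off-target somatic mutation in B cells showed how width enters a value. Of 11 genes 6 had a pair, 10 sites with a median of -0.27 (per base -0.22), 1 higher and 4 lower, beside 11.5% and 16.5% of all pairs. Per base 1 was higher and 1 lower, beside 5.95% and 5.18% of all pairs. The promoter of Myc, the growth control transcription factor (chr15:61816040-61817936), had centred densities of 3.53 in WT, 3.37 in Rif1KO, 1.52 in Rif1KO_shLacZ and 1.25 in Rif1KO_shMcm6, and a difference of -2.27 ± 0.08 (counting SE). The site was 1897 bp wide in the table with WT and 767 bp in the table with Rif1KO_shMcm6, and per base the difference was -0.22. The promoters of Pim1, a serine/threonine kinase gene, and Il4ra, the IL4 receptor alpha chain, had -1.03 and -0.78 (per base -0.21 and -0.22). Rhoh, a small GTPase gene of blood cells, had 0.29 (per base -0.29). Per base these 4 promoters lay between -0.29 and -0.21, where the median of all promoter pairs was -0.18.

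Large genes of common fragile sites, which replicate late and are transcribed over long distances, had higher densities in Rif1KO_shMcm6 relative to all pairs. Of 25 such genes 24 had a pair, 252 sites with a median of 0.21 (per base 0.17). Of these sites, 48 (19%, 14.7 to 24.3) were higher and 17 (6.75%, 4.25 to 10.5) lower, beside 11.5% and 16.5% of all pairs, and per base 37 (14.7%) were higher and 9 (3.57%) lower, beside 5.95% and 5.18%. The per-base count rested largely on Csmd3, without which 16 of 205 (7.80%, 4.86 to 12.3) were higher per base and the median was 0.14 (per base 0.08), while on the RPM scale 33 (16.1%, 11.7 to 21.7) were higher. Without chromosomes 10, 15 and 16 the shares were 8.47% per base and 17.5%. The 25 genes had 142 list sites in WT and 1366 in Rif1KO_shMcm6, a ratio of 9.62 where that of the autosomes was 4.42, and 3 genes, Wwox, Ctnna3 and Negr1, lay below the latter. The medians of the steps were 0.14, -0.07 and 0.11, so the steps within a table were above 0 and the same-genotype step was not. Csmd3, which lies in the higher stretch of chromosome 15, held 47 of the pairs with a median of 0.35 (per base 0.56) and had 14 list sites in WT and 95 in Rif1KO_shMcm6. Cntnap2 and Ptprd, neuronal adhesion genes, had no WT list site and 115 and 116 in Rif1KO_shMcm6, with medians of 0.49 and 0.30 over 12 pairs each (per base 0.30 and 0.18). Wwox, an oxidoreductase gene, had 20 and 57 list sites and a median of -0.09 over 21 pairs, and Ctnna3, on chromosome 10, 21 and 73 list sites and a median of 0.01 (per base -0.24). At promoters of the list, Negr1, a neuronal adhesion gene, had -0.10, Magi2, a scaffold gene of cell junctions, 0.01, and Ctnna2, a neuronal catenin gene, 0.42 (per base 0.47, -0.82 and 0.38). The genes thus differed among themselves, and the sites of a gene are not replicates.

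Other gene families were counted for comparison, again beside 11.5% of all pairs higher and 16.5% lower. Hox genes, which pattern the body axis, had 23 paired sites in 19 of 39 genes with a median of 0.03 (per base 0.13), 6 higher and 2 lower. Among their 14 promoters with a pair, Hoxc9 was lowest at -0.83, Hoxc8 highest at 1.07, and Hoxc5 (0.03) and Hoxa9 (0.10) were in the middle. Per base these 4 had -0.09, 0.94, 0.72 and -0.16, and the lowest was Hoxc11 at -0.50. Of the 23 sites 2 were higher and 0 lower per base, beside 5.95% and 5.18% of all pairs. The Hoxc promoters lie in the stretch of chromosome 15 from 100 to 110 Mb, where pairs had a median of 0.38 (per base 0.43). The WT to Rif1KO step was 0.50 in that stretch and 0.57 at Hoxc8. Olfactory receptor genes, whose products act in the nose, had 15 sites in 15 of 1081 genes with a median of 0.23 (per base -0.10), 3 higher and 1 lower. Among the 13 promoter sites of this family, values ran from -0.51 at Olfr639 to 0.88 at Olfr1198 with Olfr1490 in the middle at 0.24. Per base these 3 had -0.63, 0.27 and 0.07, and 9 of the 13 were below 0, against 3 on the RPM scale. The median of all promoter pairs was -0.18 per base and -0.35 on the RPM scale. Of the 15 sites, 0 were higher and 1 lower per base, beside 5.95% and 5.18% of all pairs. Ribosomal protein genes had 3 sites in 3 of 78 genes (median -0.33, per base 0.08), among them the promoter of Rpl15 at -0.33 (per base 0.26), and histone genes had 1 site in 1 of 67 genes.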

How the data were processed

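SNS-seq libraries of 4 groups of CH12 cells were used, 2 per group. Per the labels, the methods and the submitters' processing notes, the authors trimmed reads with Trim Galore 0.6.4 and cutadapt 2.6, aligned them uniquely to mm9 with Bowtie 1.2.3, called peaks per replicate with MACS and no input library, intersected the replicates of a group with bedtools into consensus peaks and kept clustered ones. Peak sets of the 2 groups of a table were then merged. The deposited files are 4 IS lists, whose score column counts the replicate peaks joined in a site, and 2 merged tables with 1 log2 RPM value per group. How replicates were pooled is not given in the sources used here. The deposited RPM values sum to 1000000 per column and were whole multiples of 1 read at 100.0% of sites within a tolerance of 0.01, which gave the reads behind each value. The authors' column of fold-change categories was not used.

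Sites of the tables that overlapped one-to-one by at least 1 bp were paired on autosomes and centred on the median over pairs. The 1.5-fold threshold and the 5 classes follow the study. GC content, motifs and gene context came from the NCBIM37 (mm9) sequence and its GENCODE annotation. A site that was no promoter counted as exonic where it touched an exon, otherwise as intronic or intergenic, over the joint span of a pair, so wider sites qualify more readily. Named were the 12 highest and 12 lowest pairs (overlap of at least 50% of both sites, mean density at or above the median), promoter sites of the gene lists (the densest per gene, and the highest, lowest and middle where a list had over 10), Rif1 and Mcm6, and the 5 highest and 5 lowest 1-Mb windows with at least 10 pairs. Other genes named from the lists or windows were chosen after their values were seen. The comparison, the gene lists and the alternatives were chosen with earlier results of these data known. Alternatives covered the threshold, centring, width, overlap, a density filter, a pseudocount of 1 RPM, list membership, chromosomes and counting error. The scripts were tested on simulated data. Python 3.11.15, numpy 2.4.6, pandas 2.3.3, pysam 0.24.0 and matplotlib 3.10.9 were used. A few items that the naming rule covers are not reported here.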

Additional observations from a re-analysis of the deposited data

Results flagged for a closer look

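Chromosome X was outside the autosomal comparison and is given here because its lists held more sites in Rif1KO_shMcm6 than in WT, by a larger ratio than on the autosomes. The lists had 100 sites on chromosome X in WT and 2138 in Rif1KO_shMcm6, a ratio of 21.4, while the autosomal ratio was 4.42. Of the sites on autosomes and chromosome X, the latter held 0.387% in WT, 0.393% in Rif1KO, 1.73% in Rif1KO_shLacZ and 1.85% in Rif1KO_shMcm6, so the share was alike within each table and differed between the groups without and with a hairpin. At the 101 paired sites of chromosome X the median difference was -0.22 (SD over sites 0.66), and per base it was -0.11. Of these sites 8 were higher and 31 lower by over 1.5-fold, beside 11.5% and 16.5% of the autosomal pairs, whose median was -0.07. The part of depth in the list ratio was not tested.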

How the results depend on the processing

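Across 11 results and 69 alternatives, 43 values stayed within the limits set for them, 25 moved and 1 reversed. The reversal was the rho of the difference with starting density, 0.250 with Rif1KO_shLacZ density and -0.337 with Rif1KO density. The overlap of WT sites (77.1%) was 49.2% with 50% overlap of both sites, 44.3% with the longer list cut and 77.9% without chromosomes 10, 15 and 16, and that of Rif1KO_shMcm6 sites (17.3%) was 11.1%, 43.4% and 16.7%. The share of higher pairs (11.5%) was 3.04% at 2-fold, 0.127% without centring, 5.95% per base, 7.07% with 50% overlap, 5.95% at widths within 1.25 times and 39.1% with centring on all sites. The share of lower pairs (16.5%) was 5.03% at 2-fold, 88.2% without centring, 5.18% per base and 3.70% with centring on all sites. At like widths rho was -0.379 with GC content and -0.305 with gene number. The promoter share of class 1 minus class 5 (8.61 points) was 10.6 with 50% overlap, 9.70 without the lowest 25% of densities, 16.1 at like widths and 9.64 with promoters of 2 kb. The 107 bp between the groups in median distance from the motif was 40 bp at sites 300 to 400 bp wide and 93 to 148 bp under its other 5 alternatives. The share of fragile-site pairs higher per base (14.7%) was 7.80% without Csmd3 and 8.47% without chromosomes 10, 15 and 16. Like widths, centring on all sites and the motif and fragile-site alternatives were added after seeing the data. No paired analysis was possible because each group has only 1 pooled value at a site, and replicates could not be left out for the same reason. Counting error is largest in WT, with a median of 74 reads per pair.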
